A study of Mus musculus with 18 samples.

Results

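The 78 genes named Mrpl or Mrps, most of which encode proteins of the mitochondrial ribosome, were followed in nuclear and cytoplasmic RNA of isolated mouse muscle fibers. They were taken as every non-control probe whose gene name was Mrpl or Mrps followed by a number and whose description did not contain the word pseudogene. This gave 102 probes of the 55681 on the array, and 78 of its 35527 genes. By the subunit in which their protein sits, 49 of the 78 genes belonged to the large subunit, Mrps18a and Mrps30 among them in spite of their names, and 26 to the small subunit. The remaining 3 were Mrps36, whose product is now known as a component of the 2-oxoglutarate dehydrogenase complex, and Mrps36-ps1 and Mrps36-ps2, whose names end as pseudogene names do although their descriptions lack the word.

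Mitochondrial ribosomes translate the few proteins encoded by mitochondrial DNA, nearly all of which are core subunits of the respiratory chain and ATP synthase. All proteins of these ribosomes are encoded in the nucleus, so their mRNAs are transcribed and spliced there, exported, translated in the cytoplasm and the products imported into mitochondria. Some of the proteins have counterparts in bacterial ribosomes and others are found only in mitochondria. In skeletal muscle, slow oxidative fibers such as those of the mouse soleus hold more mitochondrial enzymes than the fast glycolytic fibers that fill the extensor digitorum longus (EDL) and the tibialis anterior (TA).

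RNA came from pools of 5 to 10 fibers isolated from the EDL, soleus and TA of CD1 females aged 3 months. Each pool was lysed with detergent, nuclei were pelleted at low speed and the supernatant was kept as cytoplasm. The 6 groups, nuclei and cytoplasm of each muscle, had 3 arrays each, 18 in all. Same-numbered EDL and soleus samples carried the same mouse numbers, as did the nuclear and cytoplasmic samples of these muscles. In TA the mouse numbers of the fractions matched only in part, and some were also those of EDL and soleus samples. Values are log2 processed intensities of a 1-colour array after quantile normalization, and they can be compared between arrays for 1 probe but not between probes. A difference of 1 is a 2-fold difference. Each gene stands by its brightest tested probe, and a gene is said to be called where limma's adjusted p over all tested probes was at most 0.05. Because the same total amount of labelled RNA was put on every array, a difference describes a share of the RNA in a fraction and not the number of molecules per fiber.

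On each array 78.9% to 89.3% of spots were positive and significant, and 77 of the 78 genes could be tested over the 3 muscles. The fractions carried their labels: all 4 nuclear RNA markers were higher in nuclei, and their summed level lay between 9.61 and 10.97 in cytoplasm and between 12.36 and 13.62 in nuclei. Muscle labels were carried by the fibers too, with all 6 slow markers higher in soleus than in EDL (Myh7, the slow myosin heavy chain, by 4.13) and Myh4, a fast one, lower (soleus minus EDL -4.48). Other cell types moved with fraction. Of the endothelial markers 6 of 6, of the fibroblast markers 5 of 6 and of the Schwann cell markers 5 of 5 were called higher in nuclei, and of the macrophage markers 5 of 5 were called lower. Their summed levels in cytoplasm and in nuclei were 10.89 to 12.55 and 12.46 to 13.10 for endothelial cells, 12.87 to 14.59 and 14.18 to 15.29 for fibroblasts, 9.35 to 10.60 and 10.36 to 11.85 for Schwann cells, and 11.57 to 12.80 and 11.35 to 11.56 for macrophages. Myofiber markers, with 12 of 17 called higher in nuclei and none lower, summed to 16.88 to 18.23 and 17.60 to 18.46. Of 2 tested satellite cell markers 1 was called higher in nuclei, and of 3 erythroid markers 1 was called lower. The part of these cells in the results below was not tested, and in pooled RNA fewer cells of a type and less RNA per cell cannot be told apart.

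The array labelled TA cytoplasm 1 stood apart from the other 2 of its group in the members and in Cdh15. In these it was close to EDL cytoplasm, but not in several other markers. Its label was not tested and is in doubt. The median absolute difference of the members from the EDL cytoplasm mean was 0.299 on it, 0.930 on array 2 and 0.687 on array 3, while arrays 2 and 3 differed from each other by a median of 0.322. Cdh15, the M-cadherin of satellite cells, showed the same division. It read 6.60 on that array, 12.53 and 11.55 on the other TA cytoplasmic arrays, 11.88 to 12.19 in TA nuclei, and 6.26 to 7.00 on all arrays of EDL and soleus. Summed Schwann cell markers read 9.35, 9.58 and 9.52 on TA cytoplasmic arrays 1 to 3, against 10.28 to 10.36 in EDL cytoplasm. Fibroblast markers read 13.62, 13.48 and 12.87 against 14.00 to 14.36, and myofiber markers 17.30, 17.10 and 16.88 against 17.46 to 17.64. Macrophage markers, at 12.80 on array 1, lay above both groups. The array shared a slide with the EDL and soleus cytoplasm and not with the other TA arrays. It is called the first TA cytoplasmic array below, after its label, and counts and differences that rest on it are also given without it where these moved. A second feature of the set concerned replicate spread. The median standard deviation (SD) of the members between the 3 arrays of a group was 0.215 for EDL cytoplasm, 0.204 for soleus cytoplasm and 0.392 for TA cytoplasm, and 0.068, 0.078 and 0.086 for the nuclei of the same muscles. All EDL and soleus nuclei lay on 1 slide and all EDL and soleus cytoplasm on another, so fraction and slide cannot be told apart in these muscles.

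The nuclear and cytoplasmic levels of the members were compared first, to ask where their transcripts were relatively more abundant. Over the 3 muscles, 40 of 77 genes were called higher in nuclei and 5 lower, and the median difference, nuclei minus cytoplasm, was 0.32. Among all 27523 genes tested, 30.2% were called higher and 40.3% lower, with a median of -0.11. Among the 15179 tested genes with a curated messenger RNA accession, a closer background, 39.3% were called higher and 29.2% lower, with a median of 0.19. A positive difference was found for 64 of the 77 members. The 95% interval of a single member's difference had a median half-width of 0.257, so most members lay near what the design could resolve. With slide as a random block, 19 members were called, 18 higher and 1 lower, beside 15.8% and 22.5% of all genes and 20.2% and 15.3% of those with a curated accession. When nuclear replicates were averaged so that each muscle gave 1 nuclear sample, 8 were called, 7 higher and 1 lower, beside 14.0% and 26.4% of all genes and 18.7% and 17.9% of those with a curated accession.

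**Figure D1:**
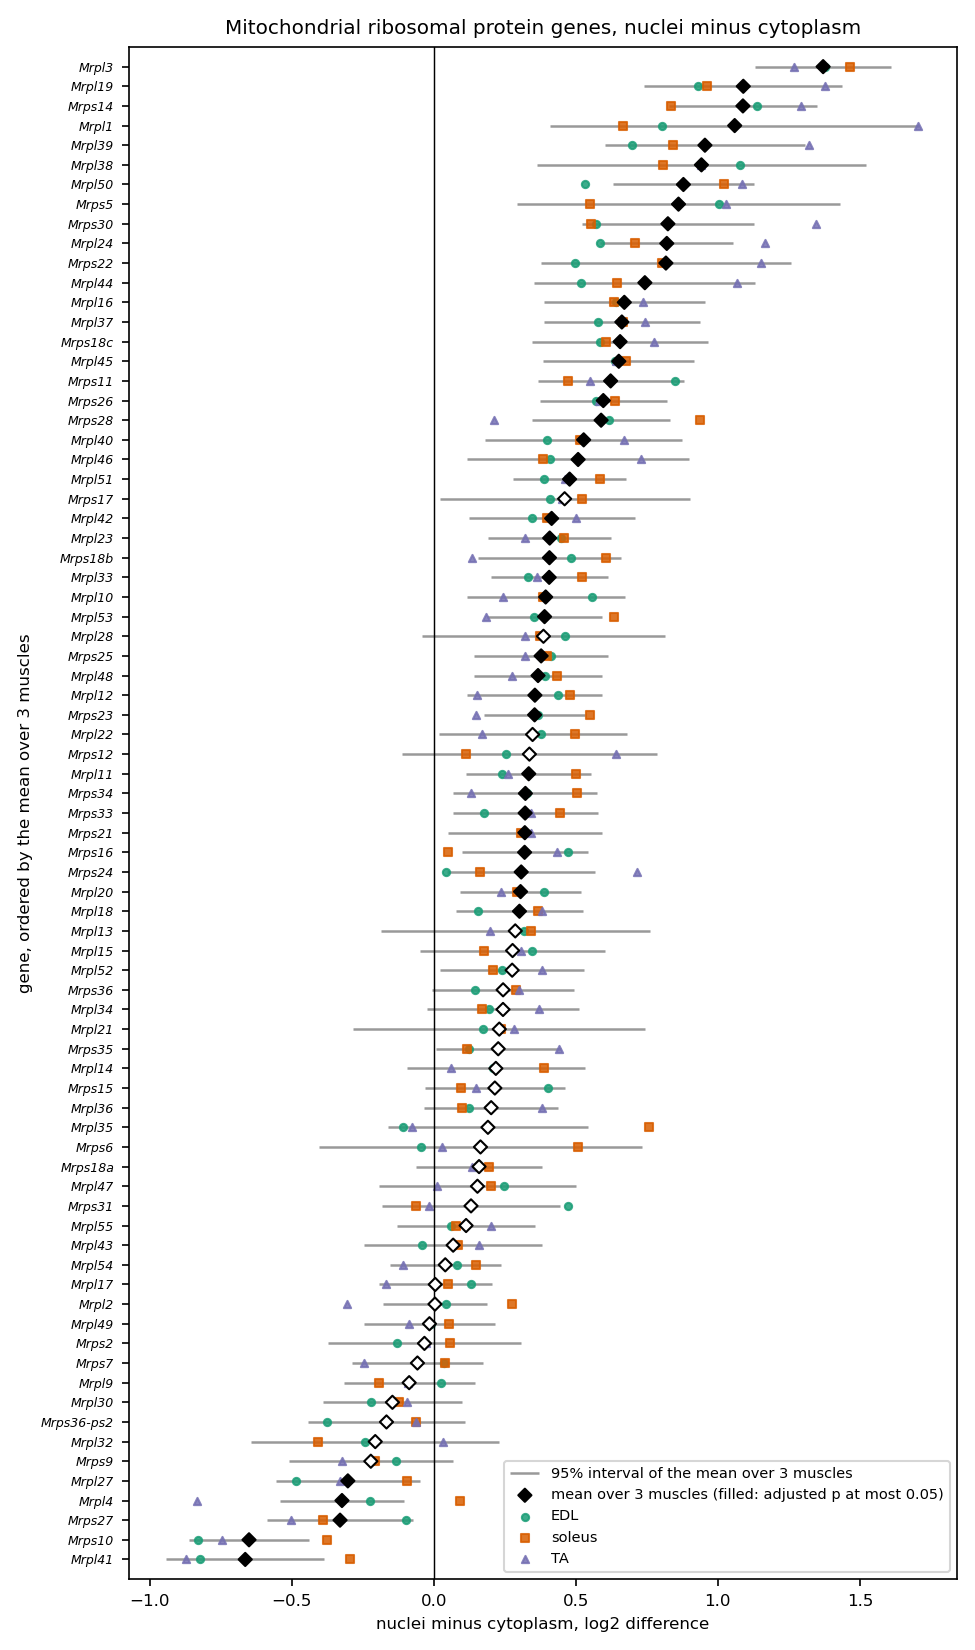
Nuclei minus cytoplasm (log2) of each member gene over the 3 muscles, with the difference within each muscle as separate points. Of 77 genes, 64 lie above 0, Mrpl3 is highest at 1.37 and Mrpl41 and Mrps10 are lowest at -0.66 and -0.65.

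Within single muscles fewer members were called. In EDL, 13 of 77 genes were called higher in nuclei and 2 lower (18.7% and 28.5% of all genes), with a median of 0.35. In soleus, 18 of 78 were called higher and 1 lower (17.2% and 23.8%), with a median of 0.38. In TA, 18 of 77 were called higher and 3 lower (19.0% and 34.9%), with a median of 0.30. Nuclear arrays lay wholly above cytoplasmic ones for 41 members in EDL and wholly below for 5 (30.8% and 37.2% of all genes, and 39.4% and 27.4% of those with a curated accession). These counts were 46 and 3 in soleus (27.1% and 30.4%, and 34.1% and 22.6%) and 27 and 5 in TA (22.0% and 39.0%, and 28.9% and 28.3%). The called shares in the higher direction were close to the background in each muscle, and those in the lower direction were below it. Without the first TA cytoplasmic array, 27 members were called higher in TA and 7 lower, and the totals called were 30 in EDL and 33 in soleus. Without EDL nuclear array 2 the EDL total was 6, without soleus nuclear array 3 the soleus total was 10, and without TA cytoplasmic array 2 the TA total was 13. The fit shares 1 estimate of spread between groups, which is below the spread of TA cytoplasm, so the calls within TA are less secure than their p-values say. With arrays weighted by the spread of their group, 16 members were called higher in TA and 3 lower. Shares of all genes called within muscles with an array left out or with weights are not given here. These counts are therefore not read as a result about the members.

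The muscles were compared for the same genes. Their arrays are distinct but their mice are not: EDL and soleus came from the same mice, and some TA samples carried mouse numbers of these. Agreement between muscles is therefore not agreement between independent animals. Called higher in all 3 muscles were 9 genes, 11.7% of the 77 against 10.1% of all genes and 13.7% of those with a curated accession: Mrpl3, Mrpl16, Mrpl19, Mrpl24, Mrpl37, Mrpl45, Mrpl50, Mrps14 and Mrps26. None was called lower in all 3, against 19.2% of all genes and 12.6% of those with a curated accession. Nuclear arrays lay wholly above cytoplasmic arrays in all 3 muscles for 19 genes, 24.7% against 13.6% of all genes and 18.0% of those with a curated accession, and wholly below for 1, Mrps10, against 22.6% and 15.1%. The sign was positive in all 3 muscles for 57 of 77 members (74.0%), compared with 34.4% of all genes and 45.4% of genes with a curated accession. Across the 77 genes the differences in EDL and soleus correlated with r = 0.81, those in EDL and TA with r = 0.80 and those in soleus and TA with r = 0.73. EDL and soleus shared slides, and each gene kept the same probe in every muscle. No member passed the test of the muscle by fraction interaction, against 1.36% of all genes, and 2 had an unadjusted p under 0.05. On simulated data that test called only 7% of changes of 1, so its outcome does not show that interactions are absent.

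**Figure D2:**
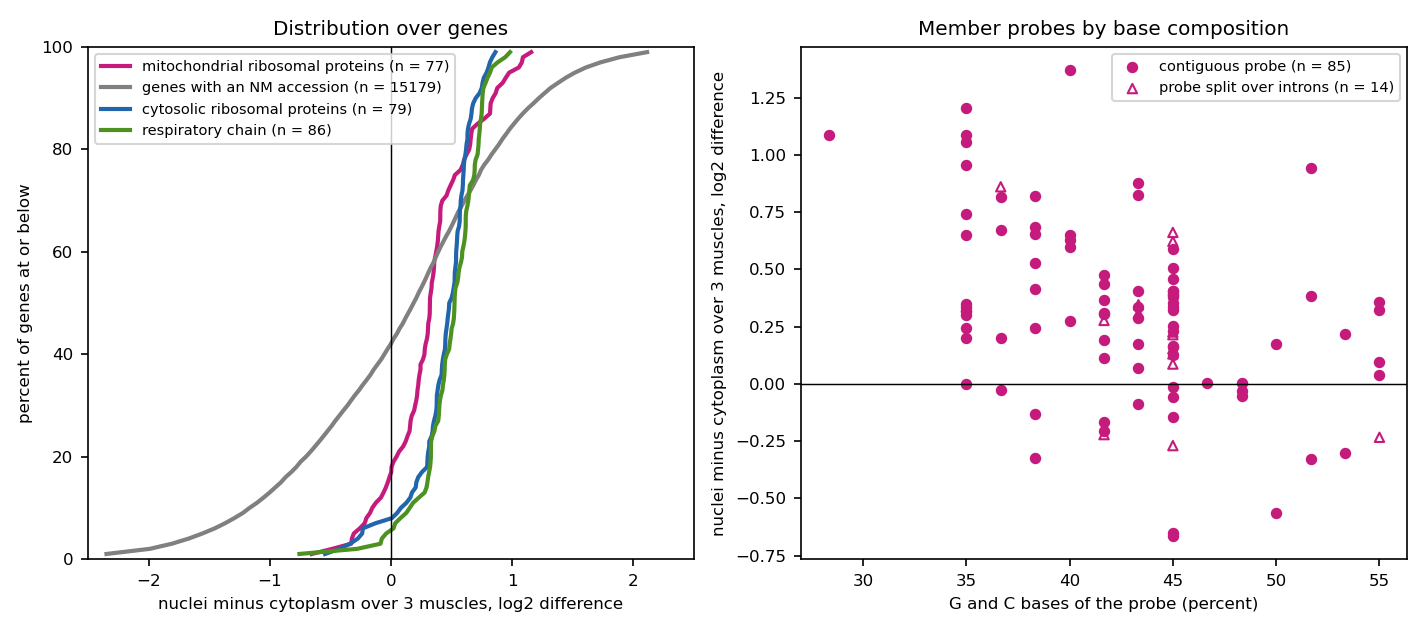
Left, cumulative share of genes against nuclei minus cytoplasm over 3 muscles (log2). Curves are for the members, genes with a curated accession, cytosolic ribosomal protein genes and respiratory chain genes, with medians of 0.32, 0.19, 0.48 and 0.52. The members' curve lies to the right of that of genes with a curated accession at the median. It lies to the left of it at the 75th percentile (0.53 against 0.73). Right, the same difference for each tested member probe against the percentage of G and C in its 60 bases. Probes contiguous in the genome and probes split over an intron are marked apart.

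By subunit, 25 of 49 large-subunit genes were called higher in nuclei over the 3 muscles and 3 lower (median 0.33), and 15 of 26 small-subunit genes were called higher and 2 lower (median 0.32). Within muscles the large-subunit calls were 8 higher and 1 lower (EDL), 13 higher and 0 lower (soleus), and 12 higher and 2 lower (TA). In the same order the small-subunit calls were 5 and 1, 5 and 0, and 6 and 1. Genes with a bacterial counterpart gave 20 higher and 3 lower of 46 (median 0.30), and those found only in mitochondria 20 and 2 of 29 (median 0.39). Over the 3 muscles 30.2% of all genes were called higher and 40.3% lower, and 39.3% and 29.2% of those with a curated accession. No test was made between these classes. Among comparable gene groups, 55 of 79 cytosolic ribosomal protein genes were called higher and 3 lower (median 0.48), as were 70 and 2 of 86 nuclear-encoded respiratory chain genes (median 0.52). The mitochondrial ribosomal genes thus held a median between that of genes with a curated accession and those of these groups.

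Sequences of the array probes are shown for the genes on which the results turn, since each level was read through 60 bases of 1 transcript. The first 30 bases of each probe are printed, with G and C in capitals to mark its base composition. The probe of Mrpl3 gave the largest difference over 3 muscles, that of Mrpl1 the largest within TA, and that of Mrps10 was lower in nuclei without overlap in every muscle:

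Mrpl3: CGCCtGtCatttataGGtGtCattCtttaG

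Mrpl1: GaattatttaaaaCGGCaCatGaaattatG

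Mrps10: atttCtGGaaCtCatGGaGatCtatCGGCC

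Mrps14, Mrpl10 and Mrpl41 are shown with both of their probes, because these gave unlike differences:

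Mrps14, upstream probe: attGaattGtCtttCaaCtttaaaGCataG

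Mrps14, downstream probe: GtGCtGatGGttGCaCGGGatCtGttttCa

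Mrpl10, upstream probe: attCaCaatGaCCtCCttGGGGaCaGGCCt

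Mrpl10, downstream probe: CttGtGCCaaGCaCtCtaCaGaCaCaGatG

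Mrpl41, upstream probe: GCCaaaaGtttGtCtaCaaaGtGGaGaCaG

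Mrpl41, downstream probe: aaaGGtGGCaCaCaGCtGtCtGtaaCtCtt

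Among proteins of the large subunit, Mrpl3, the counterpart of bacterial L3 near the peptidyl transferase centre, had the largest nuclear excess. Its probe lies at chr9:104979701-104979760 on the plus strand (mm9). The log2 level of the Mrpl3 probe was 7.16, 6.51 and 7.00 in EDL cytoplasm against 8.41, 8.31 and 8.07 in EDL nuclei. Soleus gave 7.15, 7.48 and 6.95 against 8.75, 8.56 and 8.68, and TA gave 6.49, 6.37 and 6.60 against 7.79, 7.78 and 7.70. Every nuclear array stood above every cytoplasmic array, even across muscles. The difference over 3 muscles was 1.37 (SE 0.11, n = 9 arrays against 9, some from the same mice, limma adjusted p = 5.74e-08). The separate differences were 1.38 (EDL), 1.47 (soleus) and 1.27 (TA). The call over 3 muscles held when nuclear replicates were averaged, as it did for few of the members called higher.

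Mrpl19 was dim and was well above background on only 7 of the 18 arrays. It read 4.07, 3.74 and 3.87 in EDL cytoplasm and 4.26, 5.14 and 5.06 in EDL nuclei, and 2.96, 3.31 and 2.64 in TA cytoplasm against 4.35, 4.08 and 4.60 in TA nuclei. In soleus it read 4.62, 3.64 and 4.27 in cytoplasm and 5.28, 5.22 and 4.92 in nuclei. The groups did not overlap in any muscle, and the measured difference over 3 muscles was 1.09 (SE 0.16, adjusted p = 2.66e-05). In EDL and TA no cytoplasmic spot was well above background, so the nuclear level can only be called at least 1.55-fold higher in EDL and at least 1.13-fold higher in TA. The call in EDL was lost without nuclear array 2 (difference 0.77, adjusted p = 0.066) or array 3 (0.81, 0.059), and in soleus without the second cytoplasmic array (0.69, 0.055) or the first nuclear array (0.89, 0.051).

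Mrpl1, which forms the mobile L1 stalk where deacylated transfer RNA leaves, was marked by the odd TA array. In EDL it read 6.76, 7.00 and 6.32 in cytoplasm and 7.61, 7.45 and 7.45 in nuclei, and in soleus 6.63, 7.14 and 6.69 in cytoplasm and 7.43, 7.55 and 7.49 in nuclei. In TA it read 6.89, 3.78 and 4.28 in cytoplasm and 6.80, 6.59 and 6.68 in nuclei. The nuclear arrays were above the cytoplasmic ones in EDL and soleus, whereas in TA the first cytoplasmic array exceeded all nuclei and the others lay far below. Of the TA cytoplasmic spots only the first was well above background, so differences that use the other 2 are not exact. The difference over 3 muscles was 1.06 (SE 0.31, adjusted p = 0.00604) and the TA difference was 1.71 (SE 0.53, adjusted p = 0.0135). The TA call was lost without cytoplasmic array 2 (adjusted p = 0.082) or array 3 (adjusted p = 0.059). Without array 1 it was kept and larger, with no exact size because neither remaining spot was well above background.

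Mrpl39, a mitochondria-specific protein, read 7.92, 7.43 and 7.19 in EDL cytoplasm, 8.22, 8.22 and 8.21 in EDL nuclei, 7.23, 5.87 and 6.14 in TA cytoplasm and 7.68, 7.75 and 7.77 in TA nuclei. In soleus it read 7.50, 7.77 and 7.22 against 8.49, 8.21 and 8.33. No groups overlapped, and the difference was 0.95 (SE 0.17, adjusted p = 0.000107). Mrpl50, also without a bacterial counterpart, read 7.50, 6.86 and 7.31 against 7.77, 7.77 and 7.74 in EDL, 7.16, 7.26 and 6.76 against 8.12, 8.01 and 8.11 in soleus, and 6.19, 5.62 and 6.15 against 7.07, 7.08 and 7.06 in TA. It was higher in every nuclear group, by 0.88 over the 3 muscles (SE 0.12, adjusted p = 8.34e-06). Mrpl38 differed by 0.94 (SE 0.27, adjusted p = 0.00609), and by 0.66 without the first TA cytoplasmic array. Its TA cytoplasmic arrays read 4.51, 6.95 and 7.22 against 6.88, 7.22 and 7.41 in nuclei, so that the groups overlapped there and the first cytoplasmic array lay far below.

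Mrpl24, which lines the polypeptide exit with Mrpl23, differed by 0.82 (SE 0.11, adjusted p = 8.65e-06), and Mrpl45, which holds the exit to the inner membrane, by 0.65 (SE 0.12, adjusted p = 0.000257). Mrpl44, a protein with a ribonuclease III fold, differed by 0.74 (SE 0.18, adjusted p = 0.00201). Mrps30, which in spite of its name sits in the large subunit, read 7.64, 6.87 and 7.16 in EDL cytoplasm, 7.77 to 7.81 in EDL nuclei, 5.82, 6.02 and 6.73 in TA cytoplasm and 7.54, 7.52 and 7.56 in TA nuclei. In soleus it read 7.51, 8.09 and 7.45 against 8.25, 8.22 and 8.25. Its nuclear arrays were higher in each muscle, by 0.82 over all (SE 0.14, adjusted p = 0.000104) and by 1.35 in TA (SE 0.25, adjusted p = 0.000381).

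For the stalk that recruits translation factors, Mrpl12 and Mrpl11 showed differences near the member median of 0.32. Mrpl10, at the stalk base, had probes called in opposite directions and is described below. Mrpl12, the stalk protein itself, read 10.83, 10.38 and 10.47 in EDL cytoplasm, 10.98, 11.02 and 10.99 in EDL nuclei, 10.60, 10.65 and 10.89 in soleus cytoplasm and 11.16, 11.08 and 11.32 in soleus nuclei. In TA it read 10.52, 11.04 and 11.26 in cytoplasm and 11.03, 11.11 and 11.12 in nuclei. The groups were apart in EDL and soleus and overlapped in TA, where the nuclear arrays fell within the cytoplasmic range. Over the 3 muscles the Mrpl12 difference was 0.36 (SE 0.11, adjusted p = 0.0102), and that of Mrpl11, at the base of the stalk, was 0.33 (SE 0.10, adjusted p = 0.00935). Neither was called in EDL or TA alone, and Mrpl11 was called in soleus (0.50, SE 0.18, adjusted p = 0.0363).

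**Figure D3:**
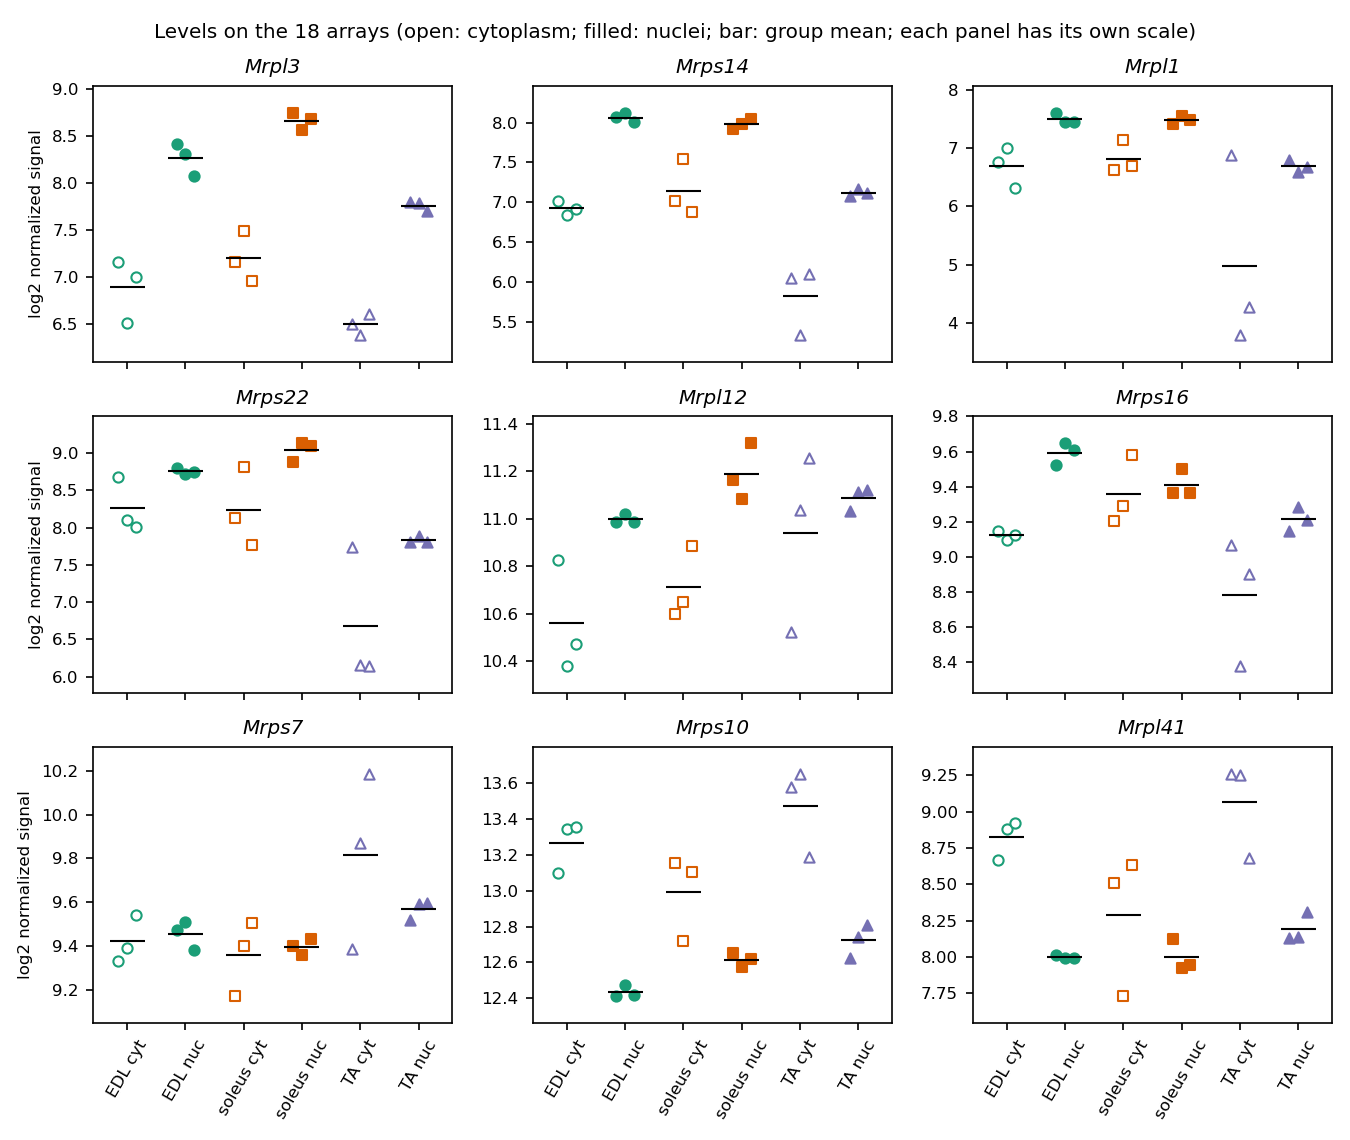
Log2 level (quantile-normalized processed intensity) on each of the 18 arrays for 9 member genes, by muscle and fraction, with the group mean as a line. Mrpl3 and Mrps14 are higher in nuclei of each muscle, Mrps10 is lower, and the first TA cytoplasmic array of Mrpl1 at 6.89 lies far above the other 2 at 3.78 and 4.28.

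In the small subunit the largest nuclear excess was that of Mrps14, a protein of the head. Its main probe lies at chr1:162129889-162129948 on the plus strand. It read 7.02, 6.84 and 6.91 in EDL cytoplasm and 8.06, 8.12 and 8.00 in EDL nuclei, 7.01, 7.55 and 6.88 in soleus cytoplasm and 7.92, 7.98 and 8.04 in soleus nuclei, and 6.05, 5.34 and 6.10 in TA cytoplasm and 7.08, 7.17 and 7.11 in TA nuclei. No group of nuclei overlapped its cytoplasm. The difference was 1.09 over the 3 muscles (SE 0.12, adjusted p = 1.47e-06), and the separate differences were 1.14 (EDL), 0.83 (soleus) and 1.29 (TA).

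Mrps5, which lines the messenger RNA entry, differed by 0.86 (SE 0.27, adjusted p = 0.0094). Its EDL arrays read 8.20, 8.19 and 7.21 in cytoplasm and 8.70, 9.10 and 8.80 in nuclei, and its TA arrays 8.00, 5.45 and 6.30 in cytoplasm and 7.42, 7.73 and 7.68 in nuclei. In TA the groups overlapped through the first cytoplasmic array, and Mrps5 was not called in any single muscle. Mrps22, mutated in a human mitochondrial disease, read 8.68, 8.11 and 8.01 in EDL cytoplasm and 8.80, 8.72 and 8.75 in EDL nuclei, 8.13, 8.82 and 7.77 against 8.89, 9.14 and 9.09 for soleus, and 7.75, 6.15 and 6.15 against 7.81, 7.88 and 7.81 for TA. Nuclei were higher without overlap in each muscle, by 0.82 over all (SE 0.21, adjusted p = 0.0025). The first TA cytoplasmic array, at 7.75, lay just under the TA nuclei.

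Mrps16, another gene mutated in human mitochondrial disease, differed by 0.32 over the 3 muscles (SE 0.10, adjusted p = 0.0127) and by 0.47 in EDL (SE 0.18, adjusted p = 0.0424). Its arrays read 9.15, 9.09 and 9.12 in EDL cytoplasm and 9.52, 9.65 and 9.61 in EDL nuclei, while in soleus the nuclear arrays lay within the cytoplasmic range of 9.20 to 9.58. Mrps12, of the decoding centre, was not called (0.34, SE 0.21, adjusted p = 0.166), nor without the first TA cytoplasmic array (0.14, adjusted p = 0.31). In TA it read 8.17, 9.99 and 9.91 in cytoplasm and 9.72, 10.03 and 10.23 in nuclei. The first cytoplasmic array was again far from the other 2, near the 8.42 to 8.61 of EDL cytoplasm. Mrps7, of the head, differed by -0.06 (SE 0.11, adjusted p = 0.65), with 9.33, 9.39 and 9.54 against 9.48, 9.51 and 9.38 in EDL. Mrps36 differed by 0.24 (SE 0.12) and missed the threshold (adjusted p = 0.075), and it passed without the first TA cytoplasmic array (0.33, adjusted p = 0.0033).

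The other genes called higher in nuclei over the 3 muscles are given by subunit. Among those of the large subunit were Mrpl16 (0.67), Mrpl37 (0.66), Mrpl40 (0.53), Mrpl46 (0.51), Mrpl51 (0.48), Mrpl42 (0.41), Mrpl23 (0.41), Mrpl33 (0.41), Mrpl53 (0.39), Mrpl48 (0.37), Mrpl20 (0.31) and Mrpl18 (0.30). Mrpl18, Mrpl20 and Mrpl33 carry the numbers of their bacterial counterparts, and Mrpl40, Mrpl42, Mrpl46, Mrpl48, Mrpl51 and Mrpl53 belong to the proteins added in mitochondria. Among those named for the small subunit were Mrps18c (0.66), Mrps11 (0.62), Mrps28 (0.59), Mrps18b (0.41), Mrps25 (0.38), Mrps23 (0.35), Mrps34 (0.32), Mrps33 (0.32), Mrps21 (0.32) and Mrps24 (0.31). The 32 genes that were not called ran from 0.46 for Mrps17 (adjusted p = 0.0583) to -0.22 for Mrps9 (adjusted p = 0.156).

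Only 5 genes were called lower in nuclei over the 3 muscles: Mrpl41, Mrps10, Mrps27, Mrpl4 and Mrpl27. Mrps10, a head protein probed at chr17:47515561-47515620 on the plus strand, read 13.10, 13.35 and 13.35 in EDL cytoplasm and 12.41, 12.48 and 12.42 in EDL nuclei, 13.15, 12.72 and 13.10 in soleus cytoplasm and 12.65, 12.57 and 12.62 in soleus nuclei, and 13.58, 13.65 and 13.19 in TA cytoplasm and 12.62, 12.74 and 12.81 in TA nuclei. Among the 77 genes tested over the 3 muscles it was the single one whose nuclear arrays lay below the cytoplasmic ones in each. The difference was -0.65 (SE 0.10, adjusted p = 3.25e-05), with -0.83 for EDL, -0.75 for TA and -0.38 for soleus, where it was not called. Mrps10 was still called when nuclear replicates were averaged, and the other genes called lower were not.

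Mrpl41, a mitochondria-specific protein, was read at its downstream probe at chr2:24828035-24828094 on the minus strand. It read 8.66, 8.88 and 8.92 in EDL cytoplasm and 8.01, 7.99 and 7.99 in EDL nuclei, and 9.26, 9.25 and 8.68 in TA cytoplasm and 8.13, 8.14 and 8.31 in TA nuclei. In soleus it read 8.51, 7.73 and 8.63 against 8.12, 7.92 and 7.95. Cytoplasm was higher without overlap in EDL and TA, and the second soleus cytoplasmic array lay below the nuclei. The difference was -0.66 (SE 0.13, adjusted p = 0.00032), and the call was not kept when nuclear replicates were averaged.

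Mrps27, a pentatricopeptide repeat protein, differed by -0.33 (SE 0.12, adjusted p = 0.0238), Mrpl4 by -0.32 (SE 0.10, adjusted p = 0.0112) and Mrpl27, which reaches toward the peptidyl transferase centre, by -0.30 (SE 0.12, adjusted p = 0.0336). The Mrpl4 difference lay mainly in TA, where cytoplasm read 10.64, 10.55 and 10.26 and nuclei 9.77, 9.88 and 9.30 (difference -0.83, SE 0.18, adjusted p = 0.0012), while soleus gave 0.09. The interaction of Mrpl4 was not called. Over the 3 muscles the other probe of Mrpl4 gave 0.09 and that of Mrpl27 gave 0.20, both opposite in sign to the main probe and not called. Mrps27 lost its call without soleus nuclear array 1 or 3 (adjusted p = 0.054 and 0.057), and Mrpl27 in 9 of the 18 sets that leave out 1 array (adjusted p = 0.052 to 0.070). Where arrays were not scaled to each other, 4 of these 5 differences were positive and that of Mrps10 was -0.16, beside a median of 0.41 over all genes in place of -0.11.

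Mrps36-ps1, named as a pseudogene of Mrps36 and probed at chr17:54005484-54005543 on the minus strand, was seen mainly in cytoplasm. It read 5.89, 6.03 and 6.07 in EDL cytoplasm, 6.71, 5.39 and 6.27 in soleus cytoplasm and 6.41, 6.17 and 5.77 in TA cytoplasm. Of the nuclear arrays only 2, both of soleus, gave a value, 2.60 and 2.03, and no nuclear spot was well above background. Its level was thus at least 3.81-fold higher in cytoplasm than in nuclei in EDL, 4.24-fold in soleus and 3.50-fold in TA. It was called in soleus (limma adjusted p = 3.48e-05), the only muscle where it could be tested, and it was the member not tested over the 3 muscles. Mrps36-ps2 was tested and not called (-0.17, adjusted p = 0.262), and its EDL arrays read 9.67, 9.48 and 9.52 in cytoplasm and 9.11, 9.22 and 9.21 in nuclei.

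Of the member genes, 21 had 2 or more tested probes, and in 3 of these probes were called in opposite directions over the 3 muscles. Mrpl10, at the stalk base, was higher in nuclei at its upstream probe (0.39, SE 0.13, adjusted p = 0.014, chr11:96909769-96909828) and lower at a probe 288 bases downstream (-0.57, SE 0.12, adjusted p = 0.000455, chr11:96910057-96910116). The upstream probe read 8.07, 7.65 and 7.30 in EDL cytoplasm and 8.19, 8.24 and 8.25 in EDL nuclei, and the downstream probe 7.75, 7.88 and 7.82 against 7.23, 7.34 and 7.17. At both probes the EDL groups were apart, in opposite order.

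Mrpl41 was higher in nuclei at its upstream probe (0.43, SE 0.15, adjusted p = 0.0145, chr2:24829696-24829755) and lower at the downstream one described above, 1661 bases away. At the upstream probe EDL cytoplasm read 7.34, 6.86 and 6.93 and EDL nuclei 7.59, 7.44 and 7.40, so that the 2 probes again placed the fractions in opposite order. Mrps26, of the small subunit, was higher in nuclei at its downstream probe (0.60, SE 0.11, adjusted p = 0.000123, chr2:130391070-130391129) and lower at a probe split over an intron (-0.23, SE 0.09, adjusted p = 0.028). The junction probe read 9.95, 9.81 and 10.04 in TA cytoplasm and 9.39, 9.47 and 9.51 in TA nuclei, and the downstream probe 9.28, 8.64 and 8.96 against 9.54, 9.65 and 9.44. Both probes separated the TA fractions, each in its own direction.

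**Figure D4:**
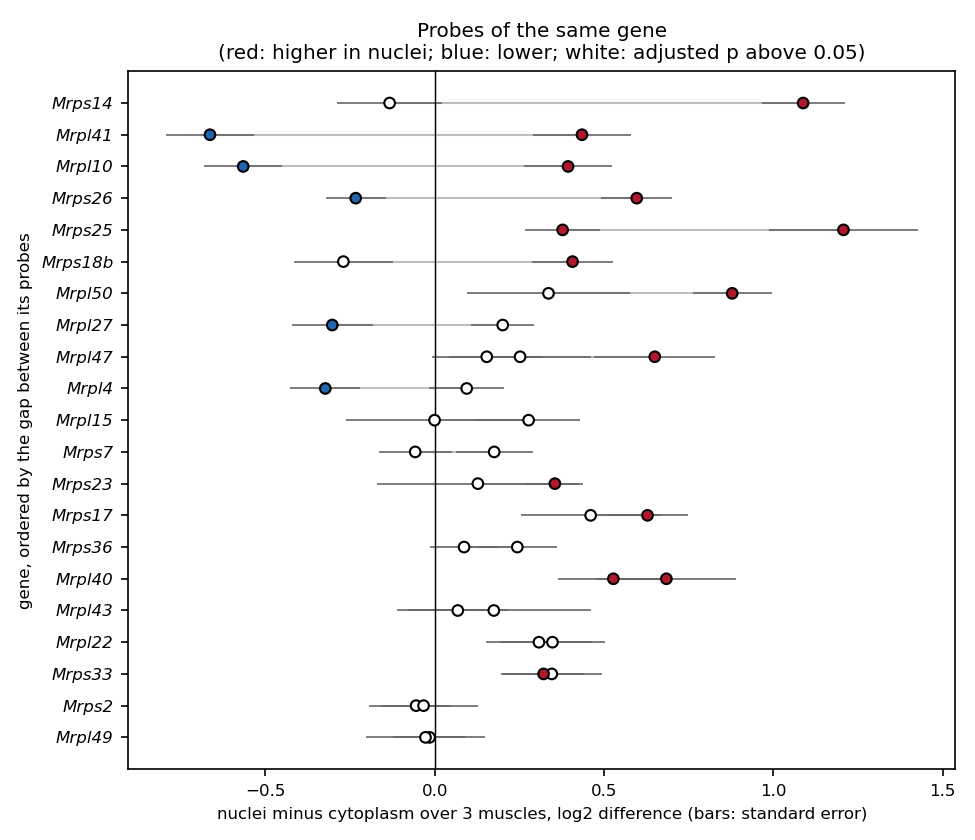
Nuclei minus cytoplasm over 3 muscles (log2) for every tested probe of the 21 member genes with 2 or more, with its SE. In Mrpl10, Mrpl41 and Mrps26 one probe is called above 0 and another below, and in Mrps14 the probes lie at 1.09 and -0.13.

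In Mrps14 the probe 491 bases downstream of the main one gave a difference of -0.13 (SE 0.16, adjusted p = 0.455) beside the 1.09 above. It read 5.85, 5.94 and 6.08 in EDL cytoplasm and 5.73, 5.58 and 5.56 in EDL nuclei, so that the nuclear arrays were the lower ones at this probe. The gap between probes of 1 gene was at least 0.5 in 8 of the 21 genes. It had no fixed order along the transcript, as among 15 genes with a pair of unsplit probes the downstream probe was the higher in 8. A gene's difference therefore describes its probe, and the isoforms or transcript ends behind each probe are not given here. Probes of Mrpl23, Mrpl30, Mrps18b and Mrps21 and the second probe of Mrps36 share at least 30 bases with a probe of another name, so these levels may mix transcripts.

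Base composition of the probe moved with the difference. Among the 33 member probes with 28.3% to 40% of G and C, 22 were called higher in nuclei and 1 lower, with a median of 0.60. Among the 50 probes from 41.7% to 45% the counts were 20 and 2 with a median of 0.28, and among the 16 probes from 46.7% to 55% they were 3 and 4 with a median of 0.02. The correlation across the 99 tested member probes was r = -0.42, and across all probes it was -0.21. The probes share arrays and are not independent. In the sequences above, those of Mrpl3 (40% of G and C), Mrpl1 (35%) and the upstream probe of Mrps14 (28.3%) belong to the first range, as does the downstream probe of Mrps14 (38.3%) with its difference of -0.13. Probes split over introns, which match only spliced RNA along their full length, gave 3 higher and 1 lower of 14 with a median of 0.22, and unsplit probes 42 and 6 of 85 with a median of 0.32. The part of base composition in the result was not tested.

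Soleus and EDL were compared next, as the slow and the fast muscle of the same mice hybridized on the same slides. Over both fractions 2 of 77 members were called higher in soleus and none lower (2.37% and 1.60% of all genes), with a median of 0.08, and 11 had an unadjusted p under 0.05. Both were genes named for the small subunit. Mrps35 read 6.35, 5.96 and 5.99 in EDL cytoplasm, 6.81, 6.498 and 6.78 in soleus cytoplasm, 6.06, 6.30 and 6.32 in EDL nuclei and 6.81, 6.76 and 6.86 in soleus nuclei. Soleus arrays were above EDL arrays in both fractions, by 0.59 (SE 0.13, n = 6 arrays against 6, adjusted p = 0.0149). Without the first EDL nuclear array the difference was 0.54 (adjusted p = 0.054). The nuclear and cytoplasmic arrays of a muscle carry the same mouse numbers, so these arrays are not separate animals and the p-value treats them as if they were.

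Mrps18a, whose product sits in the large subunit, read 10.05, 9.61 and 9.68 against 10.23, 10.54 and 10.18 in cytoplasm and 9.89, 9.95 and 9.96 against 10.61, 10.33 and 10.58 in nuclei, EDL first. Again no group overlapped, and the difference was 0.56 (SE 0.13, adjusted p = 0.022). Its call was lost in 7 of the 18 sets that leave out 1 array (adjusted p = 0.051 to 0.069) and with the pool number as a block (adjusted p = 0.056).

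Within a fraction no member was called between soleus and EDL by limma. In cytoplasm 7 of 78 members, and in nuclei 5 of 77, had an unadjusted p under 0.05 (0.936% and 0.509% of all genes were called higher and lower in cytoplasm, 1.03% and 0.644% in nuclei). The test shares 1 estimate of spread between groups, and the nuclear arrays were much closer to each other than the cytoplasmic ones. In nuclei 32 members had all 3 soleus arrays above all 3 EDL arrays and 11 had them below (22.8% and 17.7% of all genes). In cytoplasm the counts were 9 and 5 of 78 (7.55% and 8.42%).

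A fit that weights each array by the spread of its group, chosen after these values were seen, called 20 of 77 members higher in soleus nuclei and 1 lower, against 12.8% and 9.61% of all genes and 16.3% and 8.97% of genes with a curated accession. The median was 0.11, and 55 of the 77 differences were positive. Cytosolic ribosomal protein genes gave 16 and 1 of 79 and respiratory chain genes 20 and 2 of 86. The largest member differences were those of Mrps17, the counterpart of bacterial S17 (0.78, SE 0.13, adjusted p = 7.3e-04), Mrps6 (0.65, SE 0.15, adjusted p = 0.0076), Mrps35 (0.58, SE 0.083, adjusted p = 1.5e-04), Mrps18a (0.58, SE 0.088, adjusted p = 2.7e-04) and Mrpl14 (0.52, SE 0.096, adjusted p = 0.0012). Mrps17 read 8.12, 8.27 and 8.30 in EDL nuclei and 9.23, 8.91 and 8.91 in soleus nuclei, without overlap. Mrps21, the only member called lower, differed by -0.29. These calls rest on the 3 nuclear arrays of a muscle being independent, which their small spread does not show.

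**Figure D5:**
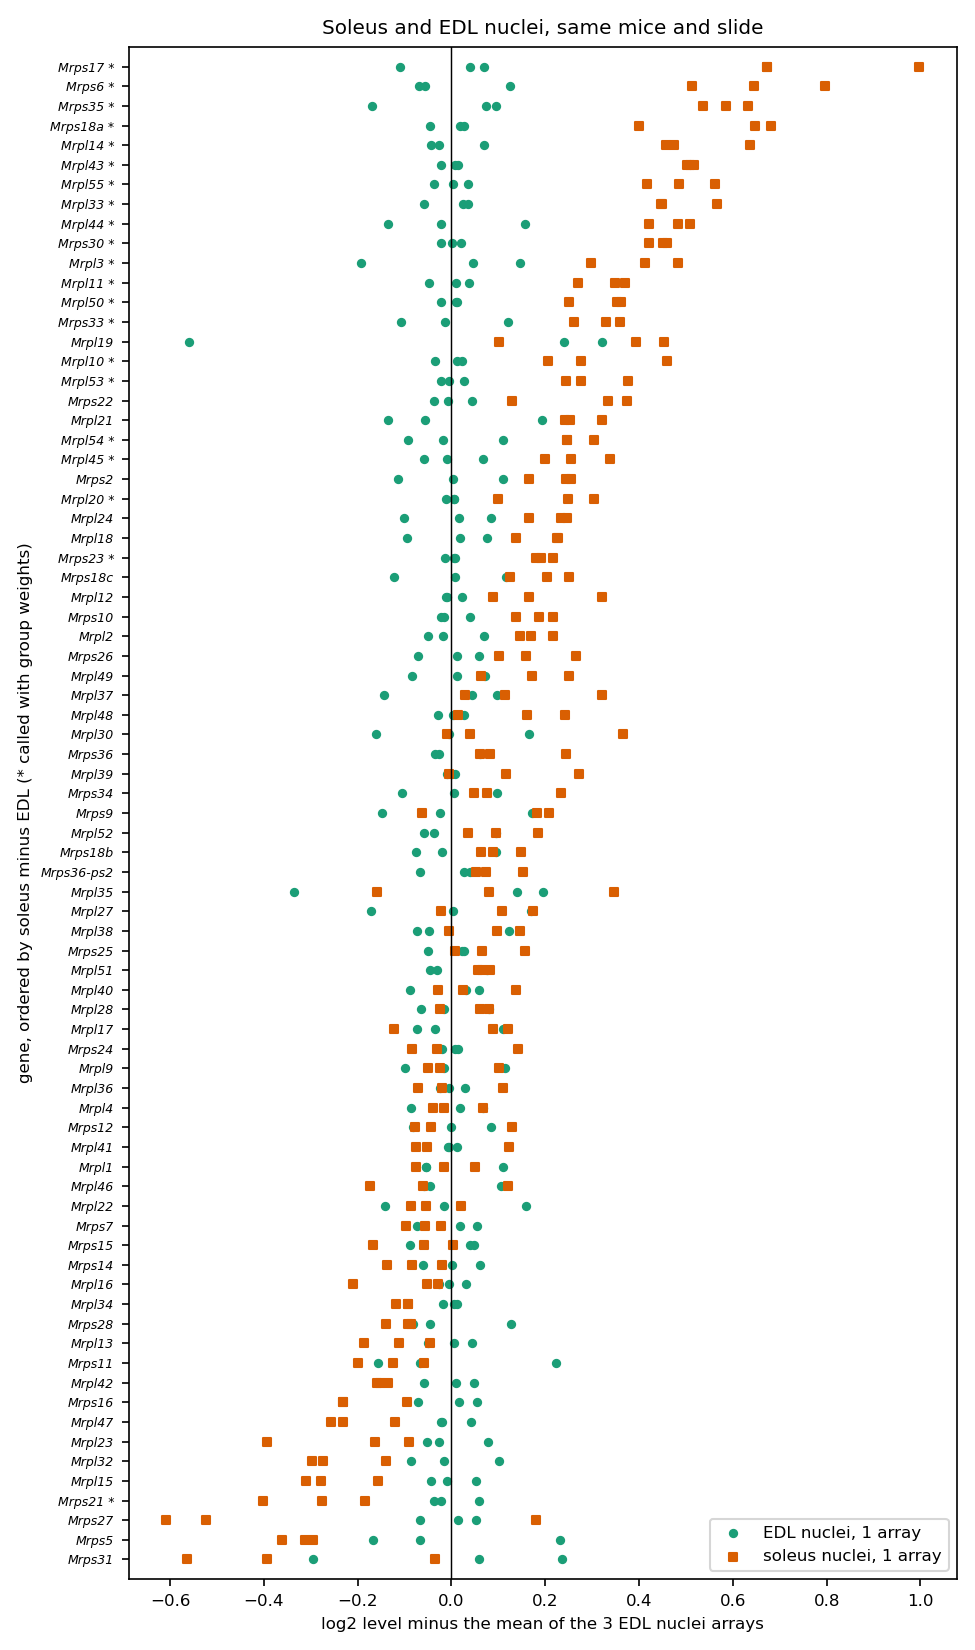
Soleus minus EDL (log2) in nuclei for each tested member gene, with genes called under weights by group spread marked by an asterisk. Of 77 genes, 55 lie above 0, from Mrps17 at 0.78 downward, and 21 carry an asterisk, of which only Mrps21 lies below 0.

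In the TA, members differed from EDL in both directions. Over both fractions 12 of 77 were called higher in TA and 32 lower (14.8% and 16.6% of all genes), with a median of -0.21. Against soleus 11 were called higher and 36 lower (20.4% and 19.0%), with a median of -0.26. These comparisons share the TA arrays. With slide as a random block, 1 member was called between TA and EDL, higher (0.540% of all genes higher and 0.718% lower), and 14 between TA and soleus, 3 higher and 11 lower (3.13% and 4.80%). Without the first TA cytoplasmic array 53 were called against EDL, 21 higher and 32 lower, and 55 against soleus, 19 higher and 36 lower. Shares of all genes without that array are not given here, so these counts do not set the members apart from other genes. Markers of cell types moved with this comparison. In TA against EDL, 11 of 17 myofiber markers were called lower and 1 higher (median -0.73), 4 of 6 fibroblast markers lower (median -1.11) and 4 of 5 Schwann cell markers lower (median -1.29), while 2 of 3 tested satellite cell markers were called higher and 1 lower, and 2 of 5 macrophage markers were called higher. None of 6 endothelial markers was called. The part of these cells in the TA differences was not tested.

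The largest excesses in TA over EDL were those of Mrpl21, which has a bacterial counterpart, at 1.70 (SE 0.30, adjusted p = 0.000903), Mrps6, whose bacterial counterpart lies on the platform, at 1.53 (SE 0.33, adjusted p = 0.00302), and Mrps12 at 1.02 (SE 0.26, adjusted p = 0.00774). Mrpl21 read 7.96, 7.87 and 7.67 in EDL cytoplasm and 7.87, 8.20 and 7.95 in EDL nuclei, against 7.97, 10.14 and 10.31 in TA cytoplasm and 9.57, 9.77 and 9.93 in TA nuclei. Mrps6 read 9.04, 9.19 and 8.77 and 8.90, 8.89 and 9.08 in EDL, against 8.84, 11.07 and 11.57 and 10.49, 10.36 and 10.72 in TA. For both, 5 of the 6 TA arrays lay far above EDL and the first cytoplasmic array lay among the EDL values. Without that array the differences of Mrpl21, Mrps6 and Mrps12 were 2.08, 1.95 and 1.33.

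The deepest falls against EDL were those of Mrps5 (-1.27, SE 0.33, adjusted p = 0.00886), Mrpl1 (-1.26, SE 0.37, adjusted p = 0.0186) and Mrps22 (-1.26, SE 0.25, adjusted p = 0.00212). Without the first TA cytoplasmic array Mrps5 and Mrps22 became -1.63 and -1.53. Mrpl1 was still called lower, with no exact size for want of signal in the other 2 cytoplasmic arrays, and without array 2 it was no longer called (adjusted p = 0.051). Against soleus, Mrps22 (-1.38), Mrpl1 (-1.32) and Mrpl44 (-1.27) were lowest and Mrpl21 (1.46), Mrps6 (1.16) and Mrps27 (1.13, SE 0.15, adjusted p = 5.95e-05) highest. Mrps27 read 6.75, 6.60 and 6.68 in EDL cytoplasm, 6.78, 6.38 and 6.79 in soleus cytoplasm and 8.10, 7.67 and 7.74 in TA cytoplasm. All TA cytoplasmic arrays of Mrps27, the first included, stood above both other muscles.

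The slide on which an array lay moved with these values, and what follows holds only if the array labelled TA cytoplasm 1 is what its label says. On the slide that held 1 TA cytoplasmic array beside those of EDL, TA minus EDL was 0.14 for Mrpl21, -0.16 for Mrps6, -0.35 for Mrps12, 0.20 for Mrpl1, 0.14 for Mrps5, -0.52 for Mrps22 and 1.42 for Mrps27. The 2 TA cytoplasmic arrays on other slides gave 2.39, 2.32, 1.42, -1.99, -2.12 and 1.03 for the same genes other than Mrpl1, which was lower there but not well above background. TA nuclei against EDL nuclei gave 1.75, 1.57, 1.22, -0.81, -1.25, -0.93 and 0.76 for all 7. Mrpl21, Mrps22 and Mrps27 kept their sign in each, while Mrps6, Mrps12, Mrpl1 and Mrps5 did not. Of 77 members, 50 had the same sign in the first and the second set of values. Probe composition moved with muscle too, since TA minus EDL had a median of -0.56 in the probes with the least G and C, with 2 called higher and 23 lower of 34, and of 0.46 in those with the most, with 7 and 0 of 16. For most of these genes muscle and slide cannot be told apart, and the parts of the slide, the label of that array, the probe composition and the Cdh15 level in the muscle differences were not tested.

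Genes that work with the mitochondrial ribosome were read from fixed lists, over 3 muscles, nuclei minus cytoplasm. Among 6 mitochondrial ribosomal proteins with other names, 3 were called higher in nuclei and 1 lower (median 0.41). They were Ptcd3, a pentatricopeptide repeat protein of the small subunit (1.00), Dap3, a GTP-binding protein of the small subunit (0.82), and Chchd1 (0.54), with Aurkaip1 at -0.36. Of 13 tested translation factors 7 were called higher and none lower (median 0.39), led by the elongation factor Gfm1 (1.50) and Guf1 (1.03). Of 15 tested aminoacyl-tRNA synthetases, which charge mitochondrial transfer RNAs, 5 were called higher and 2 lower (median 0.04), with Vars2 at 0.87, Hars2 at -0.54 and Aars2 at -0.39.

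Of 10 tested genes for mitochondrial transcription and RNA stability, 6 were called higher and 1 lower (median 0.64). Pnpt1, the polynucleotide phosphorylase, had 2.30 and Mterfd3, a transcription termination factor relative, 1.51, while Tfam, which packages mitochondrial DNA, had -0.71. Of 14 tested assembly factors 7 were called higher and 5 lower (median 0.19), with the GTPase Mtg1 at 1.68 and Mterfd2, partner of a ribosomal RNA methyltransferase, at 1.04, and with Fastkd2 at -0.76 and the methyltransferase Ftsj2 at -0.68. All 5 lists had a positive median, as did the members and the genes with a curated accession (0.19). That of the synthetases, 0.04, was the smallest and lay below this background, and that of the assembly factors was close to it. In this comparison 30.2% of all genes were called higher and 40.3% lower, and 39.3% and 29.2% of those with a curated accession.

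Promoters were read for motifs because the nuclear genes of mitochondria are known targets of NRF-1, of ETS factors such as GABP, and of YY1. A RefSeq window of GRCm38.p6, from 250 bases before to 50 after the start, was matched for 67 of the 78 genes. The ETS letters CCGGAAG, searched on both strands as were all others, were found in 24 of the 67 (35.8%), against 9.93% of all genes with a window and 15.5% of those with a curated accession. The NRF-1 letters, GCGCA, any base and then GCGC, were found in 12 (17.9%, against 5.19% and 8.84%) and the YY1 letters AAGATGGC in 12 (17.9%, against 3.19% and 4.32%). The GC box GGGCGG was found in 33 (49.3%, against 38.2% and 59.3%), the nuclear receptor letters AAGGTCA in 4 (5.97%, against 5.38% and 4.43%) and the TATA letters TATAAA in 5 (7.46%, against 15.7% and 12.2%). In 41 genes at least 1 of the ETS, NRF-1 and YY1 letters was present, in 7 at least 2, and in 26 none. The median nuclei minus cytoplasm difference was 0.33 with and 0.33 without the ETS letters, 0.27 and 0.34 for NRF-1, and 0.20 and 0.35 for YY1.

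Stretches of 60 bases are printed for 6 of the genes described above, chosen to show each of the 3 motifs, which stand in capitals. Mrpl3, Mrps22 and Mrps27 hold the ETS letters, at chr9:105053208-105053267 (plus strand), chr9:98601680-98601739 (minus strand) and chr13:99344711-99344770 (plus strand). Mrpl12 and Mrpl39 hold those of NRF-1, at chr11:120484531-120484590 (plus strand) and chr16:84735335-84735394 (minus strand), and Mrps12 holds those of YY1 at chr7:28741987-28742046 (minus strand):

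Mrpl3: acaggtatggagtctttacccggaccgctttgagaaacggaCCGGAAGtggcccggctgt

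Mrps22: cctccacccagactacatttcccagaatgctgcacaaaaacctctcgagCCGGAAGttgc

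Mrps27: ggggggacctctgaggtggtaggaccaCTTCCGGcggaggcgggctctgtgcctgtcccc

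Mrpl12: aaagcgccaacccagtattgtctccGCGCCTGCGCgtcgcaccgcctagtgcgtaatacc

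Mrpl39: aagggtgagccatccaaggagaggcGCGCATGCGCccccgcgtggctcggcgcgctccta

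Mrps12: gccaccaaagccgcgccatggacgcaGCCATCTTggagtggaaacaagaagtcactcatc

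The stretches of Mrpl3 and Mrps22 end at the base before the annotated start. In Mrps27, Mrpl12 and Mrps12 the capitals give the motif on the opposite strand. Genes with the ETS letters include Mrpl3, at 1.37 among the highest in nuclei, and Mrps27, at -0.33 among the lowest. The relation of the motifs to the fraction differences was not tested.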

How the data were processed

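Per the file headers, the authors extracted each 1-colour array with Agilent Feature Extraction 10.7.3.1, and the deposited processed signal is a background-corrected intensity. Spots not positive and significant, or flagged as outliers (0.263% to 0.568% of spots on an array), were set to missing, and 3671 control spots were dropped. Intensities were put on the log2 scale, quantile-normalized between arrays and averaged by probe name, giving 55681 probes; the deposited table of the authors' quantile-normalized intensities, on a linear scale and with 3668 probes, was used only as an alternative after a log2 transformation. A limma (3.58.1, R 4.3.3) fit of 6 group means over 18 arrays was moderated across all probes, a probe was tested with 2 of 3 values in each group involved, and p-values were adjusted by Benjamini-Hochberg over all tested probes, two-sided, with a threshold of 0.05. The number of arrays limits the precision. The authors' own test, Significance Analysis of Microarrays, was not run here.

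Groups came from the sample labels. The members and lists were chosen with earlier results of these data known. The genes named were, by size among those called, the 8 largest in each direction over 3 muscles, the 3 largest within a muscle or between TA and another muscle and the 5 largest between soleus and EDL, together with genes whose probes were called in opposite directions and 10 genes of known role. Genes also called in all 3 muscles, the 2 pseudogene names and Mrps17 under group weights were named after their values were seen. A fold against a dim group used, per array, the higher of the probe's own level and the lowest level well above background. The labels call the samples biological replicates, but TA cytoplasm 1 and 2 carry a mouse number in common and are not from wholly separate animals. Same-numbered samples carry the same mouse numbers in EDL and soleus and partly in TA, and their deviations from the group means correlated between -0.11 and 0.13 over 35528 probes. Alternatives covered scaling, background correction, dim spots, the probe used, pairing, slide, nuclear replicates and each array left out. On simulated data with each group's own spread the fit recovered the mean size of known changes but called few of them within a muscle. Changes of 0.5 were called in 0% (EDL), 1% (soleus) and 5% (TA), and changes of 1 in 26%, 41% and 45%. For soleus minus EDL these shares were 2% and 48% in cytoplasm and 0% and 34% in nuclei, and for the interaction 0% and 7%. A difference not called in these comparisons is therefore not shown to be absent. False calls exceeded the rate set by the threshold in the comparisons other than nuclei minus cytoplasm in EDL and soleus minus EDL in nuclei and over both fractions. They were most frequent for nuclei minus cytoplasm in TA, where they outnumbered the true ones. The simulation changed only 100 probes of each size among 35528, far fewer than were called between fractions in these data. Its shares of changes called and of false calls therefore do not carry over to the calls between fractions above. Probe positions are those of mm9 in the file headers, and promoters are from RefSeq on GRCm38.p6. Exons and untranslated regions were not assigned here. One gene of the related lists and one probe sequence are not reported here.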

Additional observations from a re-analysis of the deposited data

Results flagged for a closer look

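Mrpl2, a core protein of the large subunit, differed in opposite directions in a pair of muscles. In TA all 3 nuclear arrays (11.23, 11.52 and 11.61) lay below the cytoplasmic ones (11.75, 11.82 and 11.71), a difference of -0.30 (limma adjusted p = 0.097). In soleus all 3 (11.64, 11.66 and 11.71) lay above (11.31, 11.37 and 11.51), a difference of 0.28 (adjusted p = 0.152). The limma F test of the interaction of muscle and fraction gave an adjusted p of 0.284, so a difference between the muscles was not called.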

How the results depend on the processing

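Counts of members called under other settings are set against the main counts: 45 for nuclei minus cytoplasm over 3 muscles, 15 in EDL, 19 in soleus and 21 in TA, 44 for TA minus EDL, 47 for TA minus soleus, 2 for soleus minus EDL over both fractions, 0 in each fraction and 0 for the interaction. With no scaling between arrays they were 74 over 3 muscles, 62 in EDL, 78 in soleus, 45 in TA, 3 for soleus minus EDL in nuclei, and 16 for the interaction, and the differences of Mrpl41 (0.092), Mrps27 (0.28), Mrpl4 (0.47), Mrpl27 (0.50) and Mrps7 (0.73) reversed. With normexp they were 27 in EDL, 2 for soleus minus EDL in nuclei, 4 over both fractions and 2 for the interaction. With spots not well above background missing they were 29 in EDL and 34 in soleus, and with no spot missing for being dim 25 in EDL and 32 in TA. With slide as a random block they were 19 over 3 muscles, 2 in EDL, 2 in soleus, 5 for soleus minus EDL over both fractions, 1 for TA minus EDL (reversed in direction, 1 higher) and 14 for TA minus soleus. With nuclear replicates averaged to 1 sample per muscle they were 8 over 3 muscles, 0 in EDL, 1 in soleus (reversed, 1 lower), 0 in TA, and 0 for soleus minus EDL over both fractions and for both TA comparisons. With weights by group spread, added after seeing the data, they were 34 in EDL and 21 for soleus minus EDL in nuclei. The replicate block, with the pool number as a fixed term, gave 48 over 3 muscles, 13 in EDL, 18 in soleus, 22 in TA, 44 and 47 for the TA comparisons, and 1 for soleus minus EDL over both fractions, where Mrps18a was lost.

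Leaving out 1 array gave 41 (without EDL cytoplasm 2) to 50 (without TA cytoplasm 3) over 3 muscles, 6 (without EDL nuclei 2) to 30 (without TA cytoplasm 1) in EDL, 10 (without soleus nuclei 3) to 33 (without TA cytoplasm 1) in soleus, and 13 (without TA cytoplasm 2) to 34 (without TA cytoplasm 1) in TA. It gave 35 (without TA cytoplasm 2) to 53 for TA minus EDL and 37 (without TA nuclei 3) to 55 for TA minus soleus, both highest without TA cytoplasm 1. For soleus minus EDL it gave 0 (without EDL nuclei 1) to 6 (without TA cytoplasm 1) over both fractions and 0 in each fraction, and for the interaction 0 to 2. Mean values over all probes of a gene ended the calls of Mrpl41 (-0.11), Mrpl4 (-0.11) and Mrpl27 (-0.05). Of the differences of single named genes under all settings, 1394 kept direction and side of the threshold, 125 lost the call, 6 gained it and 5 reversed. The deposited table held 3 member genes, of which Mrpl23 and Mrpl51 were called over 3 muscles, while the main probe of Mrps33 was not (0.08, adjusted p = 0.78) and its other probe was (0.69, adjusted p = 0.0022). Signal limits Mrpl19 and Mrps36-ps1 to bounds, and leaves Mrpl1 with no exact TA difference. The causes of these changes were not tested. Shares of all genes under most of these settings are not given here, so the counts do not set the members apart from other genes.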
